A study of Mus musculus with 5 samples.

Results

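Shared promoter sites are the REX1 peaks that overlap, by at least 1 bp, a peak of each RNF12 protein, WT and H569A,C572A, and whose summit lies within 1 kb of an annotated transcription start site (TSS) on chromosomes 1 to 19 or X. They number 19023 of the 96050 REX1 peaks (19.8%). The sites were chosen by their peaks in these same libraries, so their presence in the 3 lists and their fold enrichments describe them and are not tested. The lists come from chromatin immunoprecipitation and sequencing (ChIP-seq) in mouse embryonic stem cells (mESCs) labelled as female and of strain 129/Sv-Cast/Ei, 1 library for each list, and peaks are not replicates. With 1 library behind each list no test between conditions is given. The REX1 library is labelled as WT mESCs with FLAG-V5-tagged REX1, precipitated with a V5 antibody. The RNF12 libraries come from Rlim+/- mESCs of the line F1 2-1 (129/Sv-Cast/Ei) that stably express 2xFLAG-V5-tagged RNF12 WT or RNF12 H569A,C572A from the pCAG promoter after puromycin selection, so the mapped protein is made from a transgene. RNF12 H569A,C572A is catalytically inactive. Cells for the RNF12 libraries and for their WT control were treated with 15 μM MG132, a proteasome inhibitor, for 3 h and cross-linked with 2 mM disuccinimidyl glutarate and 1% formaldehyde. The labels do not state these steps for REX1, and the study describes REX1 occupancy as earlier work, which was not reconciled here with the labelled REX1 library. The deposited lists hold no read counts, and library depth is therefore unknown. Expression was not measured, so the identity of the cells was not checked against marker genes.

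REX1, encoded by Zfp42, is a zinc finger protein of the YY1 family and a marker of naive pluripotency. RNF12, encoded by Rlim on the X chromosome, is a RING E3 ubiquitin ligase that marks REX1 for degradation by the proteasome, and both proteins act in the control of Xist at the onset of X chromosome inactivation. YY1 and REX1 read related DNA with the core ATGGC, which occurs in many CpG-rich promoters. Where that core lies just downstream of a TSS in the direction of transcription, its ATG can also be the codon at which translation starts.

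The REX1 motif searched here is ATGGC followed by G or T, then by A, C or G, and then by C, read on both strands within 50 bp of the REX1 summit. It contains part of the YY1 string AAGATGGC, so the matches of both can be the same bases. The 8 sites below, in GRCm38 coordinates and shown because the match starts at an annotated start codon, have the highest REX1 fold enrichments among such sites. Each run is 30 bases long, is given 5′ to 3′ on the strand of the match, and carries the match in capitals, whose first 3 letters are the start codon of the named gene.
Taf5 at chr19:47067754-47067783, plus strand: tcagccgcaagATGGCGGCgctggcggagg
Psmg1 at chr16:95990872-95990901, minus strand: gctgagggaccATGGCTGCcacgttctttg
Dnajc15 at chr14:77874881-77874910, minus strand: cctgcagtgccATGGCTACcggtggcggcg
Alg8 at chr7:97371627-97371656, plus strand: ggactccaggaATGGCGGCgtccgggtctg
Cacna2d1 at chr5:15935003-15935032, plus strand: cgatcgcgaagATGGCTGCtggctgcctgc
Pyroxd2 at chr19:42752445-42752474, minus strand: tgggggcagaaATGGCTGCcggcggccgag
Spg11 at chr2:122118350-122118379, minus strand: cccaggccaagATGGCTGCccagccagggc
Adsl at chr15:80948537-80948566, plus strand: gcgtgttgaaaATGGCTGCatccggcgacc

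At each of these 8 sites the match lay within 25 bp of the REX1 summit, and the REX1 fold enrichment ranged from 25.5 at Adsl to 34.2 at Taf5. Taf5 encodes a subunit of the general transcription factor TFIID. Psmg1 encodes a chaperone of proteasome assembly, Dnajc15 a mitochondrial co-chaperone, Adsl an enzyme of purine synthesis and Alg8 an enzyme of N-glycan assembly. RNF12 WT fold enrichments at the 8 sites lay between 5.41 at Alg8 and 13.2 at Dnajc15. RNF12 H569A,C572A lay between 7.30 at Pyroxd2 and 24.2 at Spg11.

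A further 4 runs show start codons of mitochondrial ribosomal protein genes, the gene list in which this arrangement was most frequent.
Mrpl40 at chr16:18876505-18876534, minus strand: cgtgaaaaactATGGCTACcggggtgatgc
Mrps35 at chr6:147042784-147042813, plus strand: cgtcctttatcATGGCGGCcgccgcgctgc
Mrpl22 at chr11:58171675-58171704, plus strand: tagggctcagcATGGCGGCcgcactactgc
Mrps30 at chr13:118387216-118387245, minus strand: ggcgggcgaaaATGGCGGCggccaggtatt

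The next runs show the match at sites where it is not a start codon, again on the strand of the match. Wrb, Tmem80 and Eif4a1 are among the 10 shared promoter sites with the highest REX1 fold enrichment, and Jpx and Tsix belong to the X inactivation centre.
Wrb at chr16:96145178-96145207, plus strand: gaaaggcgaaaATGGCTGCtaagtaacatc
Tmem80 at chr7:141328237-141328266, plus strand: ccagcggcaaaATGGCGGCcgtgcggccag
Eif4a1 at chr11:69672568-69672597, minus strand: tgggttccaagATGGCTGCcccgccgcgag
Jpx at chrX:103493454-103493483, minus strand: gctgtccctaaATGGCTGCtccagcaacgt
Tsix at chrX:103447557-103447586, minus strand: cacagaaaagaATGGCTGCaacctgagccc

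The whole window of 101 bases around the REX1 summit is given for 3 sites upstream of the TSS whose summit is outside annotated transcripts, on the strand of the nearest gene. They show the surroundings of a match at strong sites, and at Sox30, where the full motif is missing, a run that differs from it in its last letter.
Wrb at chr16:96145144-96145244, plus strand: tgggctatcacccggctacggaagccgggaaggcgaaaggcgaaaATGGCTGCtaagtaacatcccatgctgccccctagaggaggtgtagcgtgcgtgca
Eif4a1 at chr11:69672538-69672638, minus strand: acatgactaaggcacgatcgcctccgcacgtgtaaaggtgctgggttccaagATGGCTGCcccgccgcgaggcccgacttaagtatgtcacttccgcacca
Sox30 at chr11:45980021-45980121, plus strand: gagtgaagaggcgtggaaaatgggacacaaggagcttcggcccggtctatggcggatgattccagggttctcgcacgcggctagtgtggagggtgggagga

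Fold enrichment is the authors' signal at a peak relative to the control and is ranked here only within a list, since the control behind each list was not settled. Over the 19023 shared promoter sites the median REX1 value was 4.87 (range 1.46 to 45.9). Taking the strongest overlapping peak, the median was 5.35 (1.47 to 20.7) in the RNF12 WT list and 11.7 (2.88 to 68.1) in the RNF12 H569A,C572A list. Ranked within their own lists, the sites had median percentiles of 61.3, 70.8 and 80.4. Of the 10% of peaks with the highest fold enrichment, 36.0% of REX1 peaks were shared promoter sites, and 31.4% of RNF12 H569A,C572A and 45.6% of RNF12 WT peaks overlapped one. In the lowest 10% of each list the shares were 20.0%, 5.21% and 15.4%. Over all peaks of each list on chromosomes 1 to 19 and X they were 19.9%, 17.3% and 21.1%, in the same order. The order of the sites was weakly related between lists. Spearman's correlation over the 19023 sites was 0.199 between REX1 and RNF12 WT, 0.133 between REX1 and RNF12 H569A,C572A and 0.243 between both RNF12 proteins. It is a description across peaks that share libraries and base composition. In all, 634 sites (3.33%) were in the top 10% of all 3 lists, and 679 (3.57%) were under the median of all 3. A site overlapped exactly 1 RNF12 WT peak in 84.1% of cases and exactly 1 RNF12 H569A,C572A peak in 91.6%.

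Shared promoter sites were close to the TSS. The REX1 summit was within 150 bp of a TSS at 57.5% of them (95% Wilson interval 56.8% to 58.2%) and within 50 bp at 31.6%, against 25.6% (24.7% to 26.5%) and 11.1% of the 9123 REX1 promoter peaks that overlap no RNF12 peak. Intervals cover counting error over peaks only. REX1 promoter peaks with a partner in 1 RNF12 list lay between these groups, with 41.0% within 150 bp beside an RNF12 H569A,C572A peak and 35.9% beside an RNF12 WT peak. The peaks also differ in size, which bears on the chance of an overlap. The median REX1 peak was 252 bp wide at shared promoter sites and 142 bp where REX1 was alone, and the part of width in the difference was not tested. Along the nearest gene, 62.4% of the REX1 summits lay downstream of the TSS. Measured from the TSS nearest to the REX1 summit, the fullest 20 bp bin for REX1 began at that TSS, with 9.46% of sites. For RNF12 H569A,C572A it also began there, with 4.82%, and for RNF12 WT 20 bp upstream, with 4.52%. This choice of TSS favours REX1. From the TSS nearest to each summit itself, 63.6% of RNF12 H569A,C572A and 56.9% of RNF12 WT summits were within 150 bp. For REX1 it was the 57.5% given above.

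**Figure D1:**
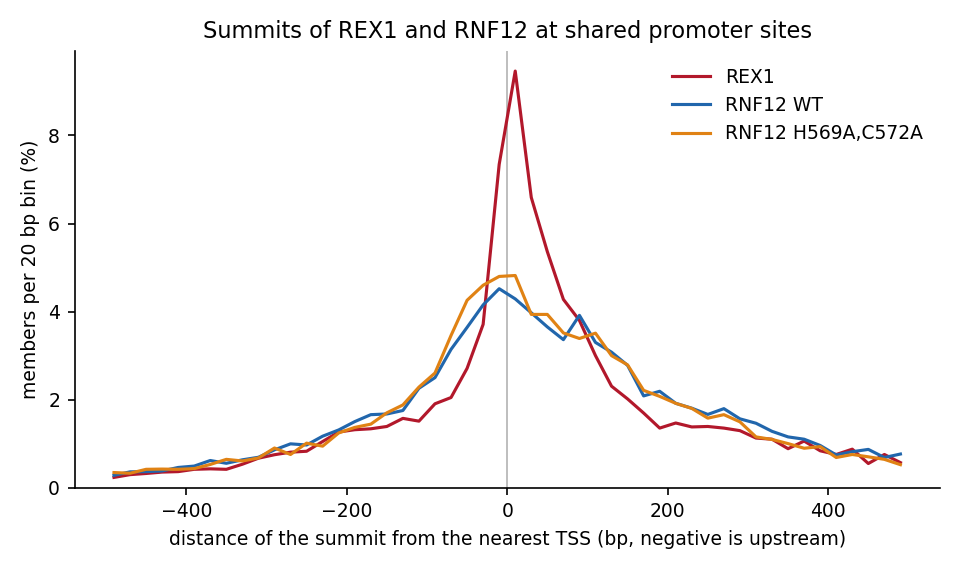
Share of the 19023 shared promoter sites (y axis, % per 20 bp bin) whose summit lies at each distance from the nearest TSS (x axis, bp), with 1 line per peak list. The REX1 line has a narrow maximum of 9.46% just downstream of the TSS, and the RNF12 lines are lower and broader, with maxima of 4.52% and 4.82%.

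RNF12 summits lay on both sides of the REX1 summit. The median distance to the REX1 summit was 101 bp in the RNF12 H569A,C572A list and 70 bp in the RNF12 WT list, and 95 bp separated both RNF12 summits. The RNF12 peaks differ in width, with medians of 460 bp for H569A,C572A and 243 bp for WT. With an overlap of 50% of both peaks the distances were 51 and 50 bp. That setting itself selects peaks of similar width with near summits, and the part of width was not tested. With the sign taken along transcription, the RNF12 WT summits had a median displacement of 2 bp (quartiles -67 and 73), and the RNF12 H569A,C572A summits one of -1 bp (-107 and 94). All 3 summits fell within 100 bp of each other at 32.5% of sites. The annotation at the REX1 summit was most often a 5′ UTR exon, at 32.7% of shared promoter sites (32.0% to 33.4%), against 7.90% of REX1 promoter peaks without RNF12. A coding exon was at the summit of 19.2%, an intron of 22.5%, an exon of a non-coding transcript of 8.63% and a stretch outside every transcript of 16.6%. For REX1 promoter peaks without RNF12, the largest class was the intron, with 42.8%.

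The REX1 motif was within 50 bp of the summit at 2171 shared promoter sites, which is 11.4% (interval 10.97% to 11.87%). In flanking windows of the same length, 250 to 350 bp from the summit, the share was 2.25%, and in such windows at the starts of all 21755 protein-coding genes it was 3.77%. REX1 promoter peaks without RNF12 held it at 7.99%, and the 10040 sites of all 3 lists that lie away from promoters at 25.8%. The motif was taken from the logo reported for REX1 in these cells, so its presence is no independent finding. The 5-letter core ATGGC, chosen after the sites were seen, was in 31.9% of the shared promoter sites, 13.6% of their flanks and 16.5% of gene starts. It was in 34.0% of REX1 promoter peaks without RNF12 and in 41.2% of the sites of all 3 lists away from promoters, so the core was no more frequent at shared promoter sites than in these groups.

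Both shares went with the strength of the REX1 peak. In the lowest decile of sites by REX1 fold enrichment (median 2.88) the full motif was in 3.84% and the core in 18.5%. In the highest decile (median 11.1) they were in 39.5% and 75.8%, and the median distance of the summit to the TSS went from 175 bp to 45 bp. The motif comes from the REX1 logo and was searched around REX1 summits, so trends with REX1 and with RNF12 strength are not on an equal footing. From the lowest to the highest decile by RNF12 WT fold enrichment the motif share went from 10.5% to 16.8%, and by RNF12 H569A,C572A from 8.30% to 15.3%. Sites with the motif had a median fold enrichment of 7.06 in the REX1 list, against 4.73 without it. The values were 5.68 against 5.33 in the RNF12 WT list and 12.3 against 11.6 in the RNF12 H569A,C572A list. The centre of the match lay a median of 15.5 bp from the REX1 summit, a distance that the search window limits to about 50 bp.

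**Figure D2:**
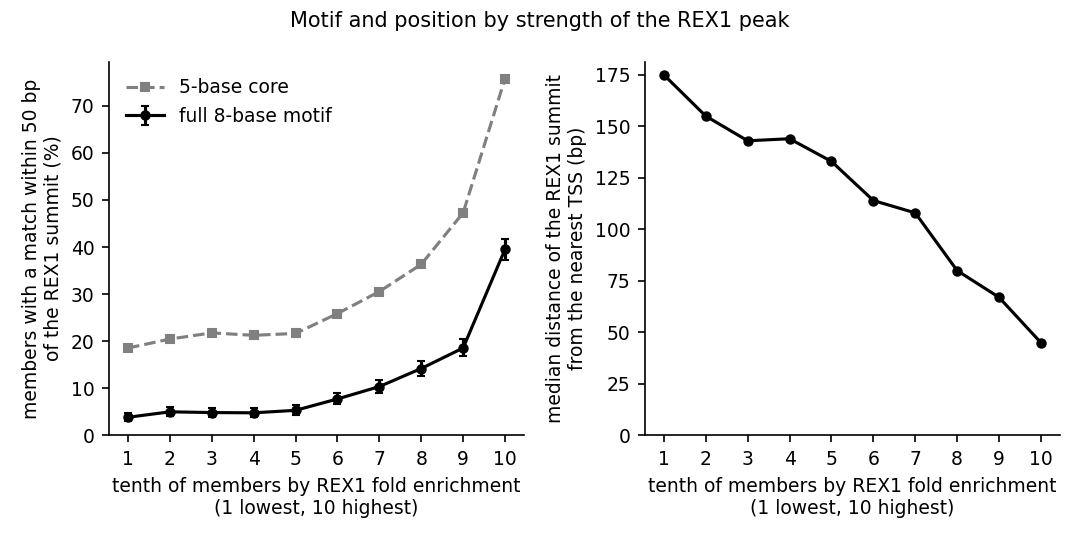
Shared promoter sites in deciles by REX1 fold enrichment (x axes, 1 lowest to 10 highest). The left panel gives the share with the full REX1 motif (circles, bars are 95% Wilson intervals) and with its 5-base core (squares) within 50 bp of the summit, which reach 39.5% and 75.8% in the highest decile, and the right panel the median distance of the summit from the nearest TSS in bp, which goes from 175 to 45.

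The strand of the motif was not even around the TSS. The 2171 sites hold 2258 matches, and of the 556 matches that start 0 to 24 bp downstream of the nearest TSS, 400 (71.9%, interval 68.1% to 75.5%) read ATGGC in the direction of transcription. Between 25 and 49 bp downstream it was 161 of 265 (60.8%), and outside these 50 bp 50.7% of 1437. Over all matches within 1 kb of any TSS, with or without a peak, 1072 were sense and 676 antisense at 0 to 24 bp downstream. At 25 to 49 bp there were 425 and 334, so an excess of sense matches was not particular to the sites. Part of the sense matches at the sites were annotated start codons. Of the 400 sense matches in the first 25 bp, 245 start at an annotated start codon, and the other 155 stand beside 155 antisense matches that are not start codons. Counted in the same way, the neighbouring bins had fewer sense than antisense matches, with 57 against 100 at 25 to 49 bp downstream and 47 against 80 in the 25 bp upstream of the TSS. Over all positions 539 of the 2258 matches (23.9%, interval 22.2% to 25.7%) were start codons, among them those of Taf5, Psmg1 and Mrpl40 shown above. Their median position was 19 bp downstream of the nearest TSS. Among REX1 promoter peaks without RNF12, 14 of 760 matches (1.84%) were start codons, and among the sites of all 3 lists away from promoters 1 of 2623. The last count was largely set by the rule, since those sites lie over 1 kb from every TSS. REX1 promoter peaks without RNF12 also lay farther from the TSS (11.1% of summits within 50 bp against 31.6%), and position was not matched. Of all 27847 annotated start codons, 1073 (3.85%) read the motif.

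**Figure D3:**
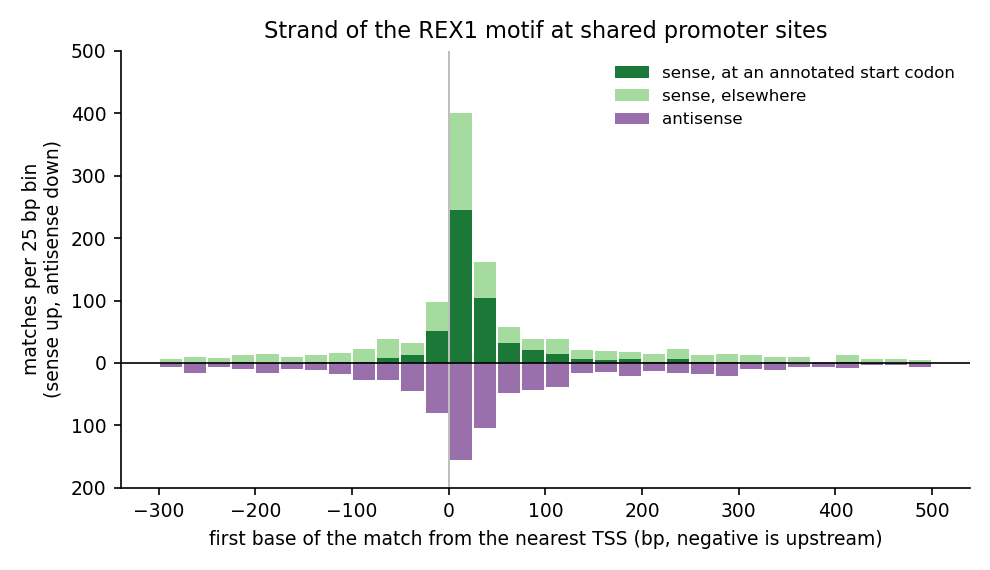
Number of REX1 motif matches at shared promoter sites in 25 bp bins (y axis) by the distance of their first base from the nearest TSS (x axis, bp). Sense matches point up, with those at annotated start codons in dark green, and antisense matches point down; in the bin from 0 to 24 bp there are 245 sense matches at start codons, 155 other sense matches and 156 antisense matches.

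The same count was made over all 26329 matches within 1 kb of any TSS, whether or not a peak was there. A shared promoter site lay within 50 bp of 8.57% of them. For matches at start codons the share was 53.9% (50.8% to 57.0%, n = 1000), and for the others 6.78% (6.480% to 7.099%, n = 25329). Position and gene type differ between these groups, so the comparison was repeated for matches 0 to 49 bp downstream of a protein-coding TSS. There, 61.9% (57.8% to 65.8%) of sense matches at start codons were at a shared promoter site, 38.5% (34.4% to 42.9%) of other sense matches and 35.0% (31.6% to 38.7%) of antisense matches. In these 3 groups 352, 193 and 241 matches were at a shared promoter site, and 217, 308 and 447 were not. The letters around the ATG also differed. At start codons 59.9% of matches in the sites read ATGGCGGC, against 37.8% of the matches elsewhere, and 28.2% followed an AAG, against 14.2%. The REX1 fold enrichment had a median of 7.68 (quartiles 5.59 and 11.1) at the 539 sites with a start codon match and of 6.87 (5.04 and 9.80) at the 1632 sites with a match elsewhere.

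Shared promoter sites lay in CpG-rich DNA. Within 50 bp of the REX1 summit their median GC content was 67.3% and they held a median of 9 CpG dinucleotides, against 59.4% and 5 in their flanks and at gene starts, and 56.4% and 3 at REX1 promoter peaks without RNF12. The sites of all 3 lists away from promoters were closer, with 64.4% and 6. A soft-masked base, which marks repeats, was in 17.4% of the windows, against 56.7% of the windows of the sites away from promoters. Other strings were searched on both strands in the same windows. The YY1 string AAGATGGC was in 3.64% of shared promoter sites, 0.675% of their flanks and 1.71% of gene starts. It was in 1.83% of REX1 promoter peaks without RNF12. The sites of all 3 lists away from promoters held it more often, at 19.9%, with 4.01% in their flanks. The NRF1 core CGCATGCG was in 1.18% of shared promoter sites, 0.315% of their flanks and 1.20% of gene starts. The ETS core CCGGAAG was in 4.72%, 2.35% and 6.70%, so it was more frequent than in the flanks and less frequent than at gene starts. The GC box GGGCGGG was about as frequent at the summit (11.9%) as in the flanks (11.4%) and was in 18.4% of gene starts. The CCAAT box AGCCAAT (0.762% against 1.23% in the flanks) and the TATA box TATAAA (0.473% against 2.11%) were less frequent at the summit. The exact string read from the RNF12 logo was in 24 sites (0.126%), 0.071% of their flanks and 0.0138% of gene starts. It was in 15.2% of the sites of all 3 lists away from promoters and in 10.4% of the flanks of those sites. These windows were centred on REX1 summits, not on RNF12 summits. Of the 11 strings searched, none was present at 68.3% of sites.

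The site with the highest REX1 fold enrichment was 213 bp upstream of Wrb (chr16:96145084-96145823), whose product takes part in the insertion of tail-anchored proteins into the endoplasmic reticulum. Its fold enrichment was 45.9 for REX1, 29.3 for RNF12 H569A,C572A and 13.1 for RNF12 WT. Tmem80, which shares its promoter with the transcription factor gene Deaf1, followed with 40.7, 34.5 and 11.9. The other 8 of the first 10 were at Gm5091 (REX1 37.0), Sox30 (36.8), Bscl2 (36.1), Eif4a1 (35.6), BC051142 (35.4), Taf5 (34.2), Dtd2 (34.1) and Armc6 (34.1). Eif4a1 encodes the RNA helicase of the cap-binding complex of translation, and Bscl2 encodes seipin, a protein of lipid droplets. The motif was present at 7 of these 10 sites and missing at Sox30, Bscl2 and Dtd2. The order differed in the RNF12 lists. The highest RNF12 WT values were at Rad54l2 (20.7), a helicase gene of the SNF2 family, at Cops7b (19.4), which encodes a subunit of the COP9 signalosome, at 2610001J05Rik (19.3), at Ap1g1 (19.03) and at Adnp (19.01). At Rad54l2 and Cops7b the REX1 fold enrichments were 7.17 and 5.44, at percentiles 89.6 and 73.4 of the REX1 list.

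The sites were also ordered by their lowest rank among the 3 lists, which selects those that are strong in every list. E2f6, which encodes a repressor of the E2F family, led with 19.5 for REX1, 39.4 for RNF12 H569A,C572A and 11.9 for RNF12 WT, and its lowest percentile was 99.7. Tmem80, Ptpa, Wdr43, Sirt1, Washc4, Mrpl15, Casc3, Wrb and Syp completed the first 10, and the lowest percentile of Syp, the last of them, was 98.98. Sirt1, which encodes an NAD-dependent deacetylase, had 17.3, 31.5 and 10.8. At 9 of the 10 the REX1 summit was within 100 bp of a TSS, and at Wrb it was 213 bp upstream.

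Of the 21755 protein-coding genes, 12208 (56.1%) had a shared promoter site within 1 kb of a TSS. The share of the REX1 promoter peaks that are shared promoter sites, which the rule fixes, was 55.3%. Among genes of other types the share was 80.5% (153 of 190) for long non-coding RNAs from bidirectional promoters, 27.1% for antisense transcripts, 9.73% for lincRNAs and 2.91% for processed pseudogenes. Of the protein-coding genes with a site, 6924 had 1 and 471 had 4 or more. Gnas, an imprinted gene with several promoters, had the most, 10.

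Of 22 lists of genes, 20 had a larger share with a site than the 56.1% of all protein-coding genes, and 19 had an interval above it. Genes of protein synthesis and energy supply were among them. A site was at 35 of 36 aminoacyl-tRNA synthetase genes (97.2%), 70 of 78 mitochondrial ribosomal protein genes (89.7%), 71 of 80 cytosolic ribosomal protein genes (88.8%), 57 of 65 translation factor genes (87.7%) and 76 of 87 respiratory chain genes (87.4%). The list shares for RNA polymerase, general factor and Mediator genes (89 of 98, 90.8%), spliceosome genes (66 of 72, 91.7%) and proteasome genes (43 of 49, 87.8%) were similar. Developmental genes were also included, with 31 of 34 Polycomb genes (91.2%), 34 of 39 Hox genes (87.2%) and 77 of 91 developmental transcription factor genes (84.6%). With a −log10 q of at least 5 required in each list, the Hox share was 43.6% (29.3% to 59.0%), an interval that includes the 38.7% of all protein-coding genes under that setting. Lower shares were found for Zfp genes (256 of 391, 65.5%), for the clustered protocadherins (11 of 57, 19.3%) and for olfactory and vomeronasal receptor genes (3 of 1420, 0.211%). The lists may differ in promoter sequence and in expression, neither of which was matched, and genes with a common promoter share a site.

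**Figure D4:**
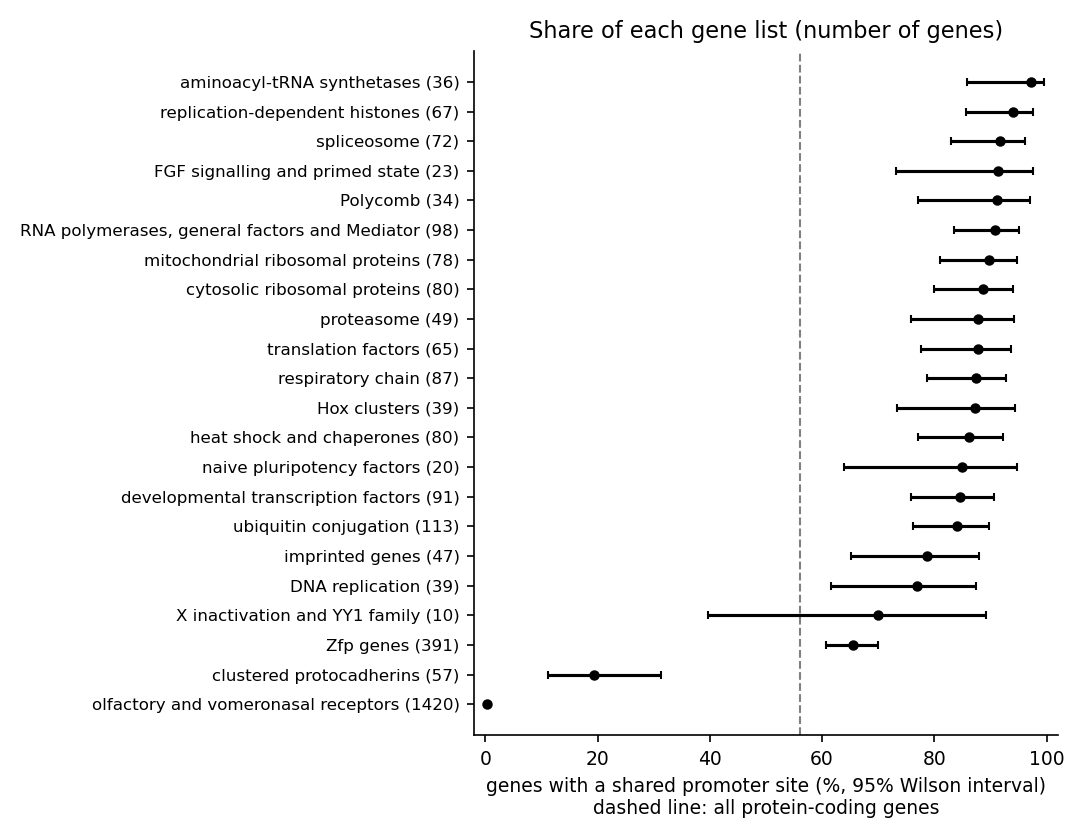
Share of the genes of each list that have a shared promoter site within 1 kb of a TSS (x axis, %, points with 95% Wilson intervals), with the number of genes in parentheses. The dashed line is the 56.1% of all protein-coding genes, and 20 of the 22 lists lie to its right.

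Among the 22 lists, mitochondrial ribosomal protein genes had the highest share of start codon matches. Of the 70 with a site, 26 (37.1%) had a site at which their own start codon was the match, against 543 of the 12208 protein-coding genes with a site (4.45%). Their start codons read the motif often in general, in 33 of 78 genes (42.3%) against 4.96% of all protein-coding genes, and 31 of those 33 had a site. The highest REX1 fold enrichments in this list were 31.8 at Mrpl52, 24.2 at Mrpl48, 20.2 at Mrpl40 and 19.02 at Mrpl47. The site of Mrpl47 is shared with Ndufb5, a gene of complex I that lies head to head with it. The median percentile of the best site per gene was 89.7 for REX1, 84.9 for RNF12 H569A,C572A and 89.9 for RNF12 WT, against 77.2, 82.1 and 81.0 over all protein-coding genes with a site. In the respiratory chain 11 of 76 genes (14.5%) had a start codon match, among them Uqcrc1 (REX1 16.9), a core subunit of complex III, and Ndufs6 (15.8). Proteasome genes had 6 of 43 (14.0%), and RNA polymerase, general factor and Mediator genes 12 of 89 (13.5%). Cytosolic ribosomal protein genes had 2 of 71 (2.82%), although 21 of the 71 had the motif somewhere in a site, as at Rpl13a (REX1 17.6). The lists of Hox (34 genes with a site), Polycomb (31) and naive pluripotency genes (17) had no start codon match, and they are too small to be told from the 4.45% of all protein-coding genes with a site. Of all protein-coding genes whose start codon reads the motif, 909 of 1080 (84.2%) had a site, at that codon or elsewhere.

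Replication-dependent histone genes, which supply histones during S phase, ranked high in the RNF12 H569A,C572A list. A site was at 63 of 67 of them (94.03%), and these genes held 72 sites, 56 of them on chromosome 13. The fold enrichment of RNF12 H569A,C572A at the 72 sites ranged from 6.20 to 68.1 with a median of 29.8, which is percentile 99.1 of its list. REX1 ranged from 2.03 to 12.03 (median 5.26, percentile 69.5) and RNF12 WT from 2.26 to 13.4 (median 4.92, percentile 59.2). In the highest 1% of the RNF12 H569A,C572A list were 37 of the 72 sites (51.4%), against 161 of all 19023 shared promoter sites (0.846%). For RNF12 WT it was 6 of the 72 (8.33%) against 4.55% of all sites, and for REX1 none against 2.30%. Of the 20 shared promoter sites with the highest RNF12 H569A,C572A fold enrichment, 19 were at these genes, led by Hist1h4b with 68.1, Hist1h2ac and Hist1h2bc, which share a site, with 63.4, Hist1h4a with 61.8, Hist1h2ak and Hist1h2bn with 60.2 and Hist1h3d with 59.9. At Hist1h4b REX1 had 3.895 and RNF12 WT 12.2, and at Hist1h3d 2.63 and 4.88. Of the 20 highest sites by RNF12 WT or by REX1, none was at a histone gene. Among the 100 highest sites, 32 by RNF12 H569A,C572A, 1 by RNF12 WT and none by REX1 were at histone genes. In the whole RNF12 H569A,C572A list, histone genes held 12 of the 20 highest and 20 of the 100 highest peaks. The histone sites held the motif in 1 case, and their median REX1 summit was 162.5 bp from the TSS. Histone genes are near-identical copies. How reads that fit several copies were placed is not given in the sources used here, so values at single histone genes are uncertain, and each list rests on 1 library.

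**Figure D5:**
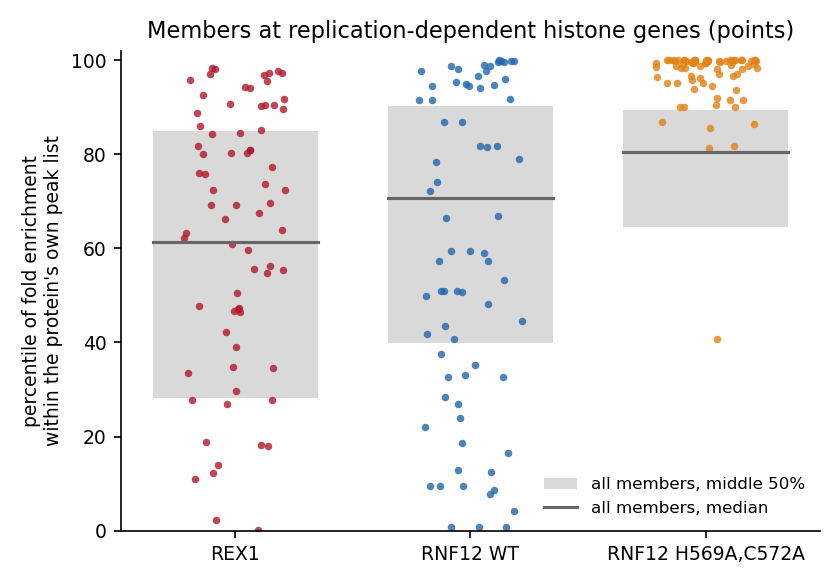
Percentile of the fold enrichment of each of the 72 shared promoter sites at replication-dependent histone genes (points) within the peak list of each protein (x axis), beside the median (line) and middle 50% (grey box) of all 19023 sites. The points of RNF12 H569A,C572A gather at the top (median 99.1), and those of REX1 (median 69.5, quartiles 46.6 and 88.9) and RNF12 WT (59.2, quartiles 32.7 and 94.5) are more widely spread.

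Genes of the naive state had a site in 17 of 20 cases (85.0%) and genes of FGF signalling and the primed state in 21 of 23 (91.3%). At a −log10 q of at least 5 the second share was 56.5% (36.8% to 74.4%), which again includes the 38.7% of all protein-coding genes. The highest REX1 fold enrichments were 20.9 at Zfx, 11.3 at Tbx3, 8.60 at Nr0b1 and 8.43 at Klf4 for the first, and 16.97 at Spry2, an inhibitor of FGF signalling, 9.04 at Otx2 and 8.80 at Zic2 for the second. The 3 naive genes without a site, named after their values were seen, were Nanog, Prdm14 and Zfp42. Nanog had a REX1 peak 51 bp upstream of a TSS (fold enrichment 5.89) with no RNF12 peak on it, and a second one 988 bp downstream (2.71) that overlapped RNF12 H569A,C572A only. Zfp42, the gene of REX1 itself, had a REX1 peak 7 bp upstream of a TSS (6.42) that overlapped RNF12 H569A,C572A only.

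Of 10 genes of X inactivation and the YY1 family, 7 had a site (70.0%, interval 39.7% to 89.2%). The interval includes the 56.1% of all protein-coding genes, and the list is unlike that group, since Ftx, Jpx, Xist and Tsix are non-coding. Jpx, a non-coding activator of Xist, had the strongest, with 24.4 for REX1, 15.1 for RNF12 H569A,C572A and 8.49 for RNF12 WT, 99 bp upstream of a TSS. Rlim, the gene of RNF12, had a site 162 bp upstream (REX1 11.2, RNF12 WT 4.79, RNF12 H569A,C572A 4.57) and another 38 bp downstream (9.59, 4.79 and 11.6), and both overlap the same RNF12 WT peak. The expressed protein is encoded by a transgene, and Rlim itself is heterozygous in the RNF12 lines. Tsix, the antisense repressor of Xist, had a site at chrX:103447396-103447866, 156 bp upstream of a TSS, with 8.59 for REX1, 16.3 for RNF12 H569A,C572A, 9.81 for RNF12 WT and the match shown above. The REX1 summit of the Tsix site lay in an intron. Another REX1 peak at Tsix, 3 bp downstream of a TSS (3.29), overlapped RNF12 H569A,C572A only. The site at Yy1 was weak for REX1 (2.67, percentile 2.39) and lay nearest to the TSS of Gm34220. Another REX1 peak at Yy1, 96 bp downstream of a TSS (2.85), also overlapped RNF12 H569A,C572A only. Xist had a REX1 peak 34 bp downstream of a TSS (5.39) that overlapped RNF12 WT only, and Yy2 one 84 bp upstream (7.40), also with RNF12 WT only. On the X chromosome 376 of 948 protein-coding genes (39.7%) had a site, against 56.9% on the autosomes. Of the REX1 promoter peaks on X, 54.4% were shared promoter sites, close to the 55.3% over all chromosomes used.

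The rule was not met evenly across chromosomes. Of the REX1 promoter peaks, 41.0% on chromosome 12 and 46.9% on chromosome 10 were shared promoter sites, against 51.6% to 62.0% on the others, and 56.4% without both. Overlap with RNF12 WT was low there (43.5% and 51.1%, elsewhere 60.6% to 68.7%), and overlap with RNF12 H569A,C572A was not (65.2% and 65.7%, elsewhere 61.1% to 69.9%). At the limit of 1 kb, sites at Kcng3, Cdh22 and Phactr3 were just inside, with summits 1000 bp from a TSS and REX1 fold enrichments of 3.02, 9.14 and 4.19. Peaks at Sfi1, Jade2 and Rab10os were just outside, at a distance 1 bp greater, with 1.73, 3.81 and 10.3.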

How the data were processed

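Peak lists from V5 ChIP-seq of tagged REX1 and of both RNF12 proteins were analysed, 1 library each. The 2 control libraries were not analysed here. Per the study and the submitters' processing notes, the authors trimmed reads with Trim Galore 0.6.7, aligned them with Bowtie2 2.5.0 to mm10 masked at differences between the parental strains, merged alleles with SAMtools 1.10 and called peaks with MACS2 2.2.7.1. The deposited columns used are the fold enrichment, a ratio over the control, and −log10 q; the deposited −log10 p and score were not used, and the other column, the summit offset, gave the authors' summit. Peaks on Y and on scaffolds were left out.

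TSSs, exons and start codons were those of GENCODE release M21 and sequence was that of GRCm38, the build named mm10. A gene had a site when its TSS was within 1 kb of a REX1 summit, and its best site was the one with the highest fold enrichment. Named were the 10 sites highest for REX1, the 5 highest for each RNF12 protein, the 10 with the highest lowest rank, up to 4 genes per list by REX1 fold enrichment, those at Zfp42, Rlim, Yy1, Xist and Tsix, and 3 on each side of the distance limit. Sites, lists and strings were chosen with earlier results of these data known. Python 3.11.15 with numpy 2.4.6, pandas 2.3.3, scipy 1.17.1 and pysam 0.24.0 was used, and overlaps, distances and motif matches were tested on simulated data. The text gives only part of the genes that the rule names per list, and the others are not reported here.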

Additional observations from a re-analysis of the deposited data

How the results depend on the processing

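No paired analysis was possible because each list rests on 1 library. The cause of the following moves was not tested beyond what each setting selects. The count of 19023 sites was 5289 with an overlap of 50% of both peaks, 7519 with summits within 100 bp, 10068 at a −log10 q of at least 5 and 2543 with the top 20000 peaks of each list. Under these 4 settings, in this order, the share of REX1 promoter peaks was 15.4%, 21.8%, 48.1% and 27.9%, the share of summits within 150 bp of a TSS 67.3%, 64.6%, 65.3% and 75.3%, the share with the motif 15.1%, 13.5%, 15.4% and 24.1%, and the share of protein-coding genes 22.8%, 30.5%, 38.7% and 11.9%. With the summit within 500 bp of a TSS, the shares of REX1 promoter peaks, of close summits and of genes were 61.5%, 64.6% and 54.0%. With TSSs of protein-coding genes only, the first 2 shares were 58.7% and 56.8%, and without chromosomes 10 and 12 the first was 56.4%. The gene share was 55.1% at a −log10 q of at least 2 and 51.3% with the nearest TSS only, and the motif share was 14.1% within 100 bp. With the nearest TSS only, or at a −log10 q of at least 5, 20 of the 22 gene lists were above the share of all protein-coding genes, but at a −log10 q of at least 5 the intervals of the Hox (43.6%), FGF and primed state (56.5%) and X inactivation lists (5 of 10 genes) included it. In settings added after seeing the data, start codons made up 25.6% of matches at a −log10 q of at least 5, and 72.6% of matches 0 to 24 bp downstream read in sense where all TSSs within 1 kb were on 1 strand. The median distance from the REX1 summit ranged from 50 to 71 bp for RNF12 WT and from 51 to 103 bp for RNF12 H569A,C572A, leaving out the setting with summits within 100 bp, which itself limits it (35 and 37 bp). The low ends of 50 and 51 bp came from the overlap of 50% of both peaks, which also limits the distance. The next lowest values were 60 and 69 bp, with the top 20000 peaks of each list. Depth is unknown, so a missing peak does not show that a protein was absent.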
